A study of Homo sapiens with 10 samples.

Results

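The ERBB receptors and their ligands were read across 10 RNA-Seq libraries of 3 human liver cancer cell lines. The set holds 9 of the 58302 genes in each deposited table, namely the receptors EGFR, ERBB2, ERBB3 and ERBB4 and the ligands AREG (amphiregulin), EREG (epiregulin), HBEGF (heparin-binding EGF-like growth factor), TGFA (transforming growth factor alpha) and BTC (betacellulin). The genes were chosen by name, each symbol was matched to 1 Ensembl identifier, and all 9 were found in every table. ERBB receptors are tyrosine kinases of the cell surface that form pairs once a ligand is bound, and they signal through the RAS-ERK and PI3K-AKT pathways. ERBB2 has no known ligand of its own, and ERBB3 has little kinase activity of its own, so both act mainly in pairs with other members. The ligands are made as membrane proteins and are released by proteases, and in the liver EGFR and its ligands are known for their part in regeneration.

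The study asked how PSPC1, a paraspeckle protein, and PTK6, a nonreceptor tyrosine kinase, change hepatocellular carcinoma cells. SK-hep1 cells (SK-Hep1 in the labels) gave 5 libraries, a mock control and cells overexpressing PSPC1, PSPC1 with PTK6 (PSPC1/PTK6), the phosphorylation-site mutant PSPC1-Y523F, or this mutant with PTK6 (PSPC1-Y523F/PTK6). Mahlavu cells gave 3 libraries, a mock control and cells given PSPC1-CT131, a C-terminal piece of PSPC1, or Mut-NLS-CT131, in which the nuclear localization sequence is mutated. Huh-7 cells gave 2 libraries, untreated and given 10 ng/ml HGF (hepatocyte growth factor, the ligand of MET) for 48 h. Constructs were carried on plasmids, and whether each culture was 1 clone is not given in the sources used here. All cells grew in medium with serum, and each condition is 1 library, so no p-value is given for a difference between conditions.

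Reads on genes numbered between 15245935 and 24278662 per library. The overexpressed gene was read first. In SK-hep1 cells PSPC1 had 0 reads in mock, 7.01 FPKM (fragments per kilobase of gene, scaled to the depth of the library) in PSPC1 and 26.4 FPKM in PSPC1/PTK6, against 2.28 FPKM in PSPC1-Y523F alone and 70.9 FPKM where PTK6 was added to it. The Mahlavu mock library held 47.3 FPKM of PSPC1, and the libraries labelled PSPC1-CT131 and Mut-NLS-CT131 held 30.8 and 22.5 FPKM, so the gene total was not higher where a piece of it was labelled as overexpressed. Those 2 libraries are named here by their labels. PTK6 had 4.79 FPKM in SK-hep1 mock, 16.7 FPKM in PSPC1/PTK6 and 10.5 FPKM in PSPC1-Y523F/PTK6. Of 10 hepatocyte markers, all 10 had at least 1 FPKM in both Huh-7 libraries, with a summed level of 29379.5 FPKM or more, while SERPINA1 alone did so in the SK-hep1 and Mahlavu libraries, with ALB, APOA1 and FGB at 0 reads in SK-hep1 mock.

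A group of the ligand genes lies together on chromosome 4, and the sequences before their starts are shown because 3 of the 4 hold the same 2 short motifs. In the coordinates of the deposited tables (GRCh38), EREG (ENSG00000124882) spans 74365143 to 74388751, AREG (ENSG00000109321) spans 74445134 to 74455009 and BTC (ENSG00000174808) spans 74744759 to 74794686 on chromosome 4. EPGN (epigen, a further EGFR ligand that is not among the 9) precedes them, and all 4 genes lie within 486 kb. The 250 bases before each RefSeq start (GRCh38.p14) are given, read 5′ to 3′ on the gene's own strand. TATAAA, the core of the TATA box, and TGACG, a part of the cAMP response element, are in capitals on either strand. RefSeq starts can differ from the ends of the spans above, and the BTC window lies in part within the span of its gene.
EPGN, chr4:74308220-74308469, plus strand: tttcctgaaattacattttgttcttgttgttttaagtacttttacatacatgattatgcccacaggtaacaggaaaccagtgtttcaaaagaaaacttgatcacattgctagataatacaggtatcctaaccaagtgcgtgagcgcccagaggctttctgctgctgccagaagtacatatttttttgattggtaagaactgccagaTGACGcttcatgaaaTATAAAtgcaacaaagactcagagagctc
EREG, chr4:74364895-74365144, plus strand: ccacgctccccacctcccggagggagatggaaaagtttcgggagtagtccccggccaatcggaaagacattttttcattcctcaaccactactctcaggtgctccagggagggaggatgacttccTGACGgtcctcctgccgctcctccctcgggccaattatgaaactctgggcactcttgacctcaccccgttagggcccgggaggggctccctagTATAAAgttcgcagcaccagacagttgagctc
AREG, chr4:74444886-74445135, plus strand: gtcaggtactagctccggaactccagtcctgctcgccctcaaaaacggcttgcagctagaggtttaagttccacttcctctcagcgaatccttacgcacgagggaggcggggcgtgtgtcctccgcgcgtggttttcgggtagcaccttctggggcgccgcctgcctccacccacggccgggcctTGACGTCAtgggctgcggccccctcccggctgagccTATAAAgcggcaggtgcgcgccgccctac
BTC, chr4:74794524-74794773, minus strand: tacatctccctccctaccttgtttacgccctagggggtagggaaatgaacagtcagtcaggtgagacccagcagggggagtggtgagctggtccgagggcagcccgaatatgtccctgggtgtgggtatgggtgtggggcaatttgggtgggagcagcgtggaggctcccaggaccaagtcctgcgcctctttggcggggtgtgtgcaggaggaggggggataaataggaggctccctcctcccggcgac

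Counted back from the start, TATAAA began at -29 in EPGN, at -32 in EREG and at -29 in AREG. TGACG began at -44 in EPGN and at -125 in EREG, and AREG held it at -65 overlapping its own reverse complement, which makes the full palindrome TGACGTCA. The BTC window held neither. Of 35116 promoter windows of the same length, 10.7% held TATAAA, 21.2% held TGACG and 1.60% held both. A match is a description of letters and not a bound site. HBEGF, on chromosome 5 (140332843 to 140346631, minus strand), differed in its letters, and its window is shown with the cluster for that contrast. It has no capitals because it held neither motif, and it too reaches into the span of its gene.
HBEGF, chr5:140346604-140346853, minus strand: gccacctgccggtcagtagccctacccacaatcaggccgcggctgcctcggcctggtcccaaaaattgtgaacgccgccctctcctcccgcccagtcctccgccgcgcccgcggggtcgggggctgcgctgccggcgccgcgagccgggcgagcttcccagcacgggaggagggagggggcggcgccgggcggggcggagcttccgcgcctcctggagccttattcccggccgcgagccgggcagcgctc

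The HBEGF window was 76.4% G and C, against 38.0% in EPGN and a median of 58.0% over all windows, and held the GC box letters GGGCGG 5 times on either strand, which 42.6% of windows held at least once. Of the other 3 motifs searched on both strands, TGANTCA (AP-1) was in the window of ERBB2 alone among the 7 genes read, CCAAT was in ERBB2, EREG and EPGN, and the E-box letters CACCTG were in AREG, EREG, HBEGF and BTC, against 6.57%, 32.0% and 17.5% of all windows. EGFR, ERBB3 and TGFA had no single window.

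EGFR, the founding receptor of the family (ENSG00000146648, chromosome 7, 55019021 to 55211628), had a high level in all 10 libraries. It was at 36.2 FPKM in SK-hep1 mock, 32.9 FPKM in PSPC1, 23.6 FPKM in PSPC1/PTK6, 30.2 FPKM in PSPC1-Y523F and 36.0 FPKM in PSPC1-Y523F/PTK6. In Mahlavu cells it was at 36.5 FPKM in mock, 47.3 FPKM with PSPC1-CT131 and 33.2 FPKM with Mut-NLS-CT131, and in Huh-7 cells at 98.5 FPKM untreated and 95.4 FPKM with HGF. The Huh-7 libraries stood above the other 8, the SK-hep1 and Mahlavu libraries overlapped, and PSPC1/PTK6 was the lowest of all. EGFR-AS1, an antisense RNA that overlaps EGFR, had 210 and 208 reads in Huh-7 cells and at most 2 reads in each other library. The library kit named in the labels does not mark strand, so reads from the shared bases cannot be told apart.

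ERBB2 (HER2; ENSG00000141736, chromosome 17, 39687914 to 39730426) was steady within each line. Its level in the SK-hep1 libraries was 58.8 FPKM in mock, 58.1 FPKM in PSPC1, 65.2 FPKM in PSPC1/PTK6, 54.0 FPKM in PSPC1-Y523F and 57.1 FPKM in PSPC1-Y523F/PTK6. Mahlavu cells had 19.4 FPKM in mock, 22.0 FPKM with PSPC1-CT131 and 18.0 FPKM with Mut-NLS-CT131, and Huh-7 cells had 55.0 FPKM untreated and 62.3 FPKM with HGF. All Mahlavu libraries lay below all others, and SK-hep1 and Huh-7 libraries overlapped. In the order of the 10 levels, 8 of 9 neighbouring pairs had overlapping 95% Wilson intervals, which cover counting error only. MIEN1 and PGAP3 overlap ERBB2 on the opposite strand, with 167 to 551 and 120 to 389 reads in the SK-hep1 and Mahlavu libraries, against 745 to 3382 reads of ERBB2.

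ERBB3 (HER3, a receptor for neuregulins; ENSG00000065361, chromosome 12, 56079857 to 56103505) varied most among the receptors. SK-hep1 mock had 12.7 FPKM (95% Wilson interval 11.6 to 13.9, from 452 reads). PSPC1 had 23.4 FPKM from 778 reads, PSPC1/PTK6 had 24.0 FPKM from 941 reads, PSPC1-Y523F had 8.23 FPKM from 285 reads and PSPC1-Y523F/PTK6 had 26.2 FPKM from 1046 reads. Mahlavu libraries had 12, 7 and 12 reads, 0.322, 0.215 and 0.383 FPKM, in mock, PSPC1-CT131 and Mut-NLS-CT131. Huh-7 cells had 222 FPKM untreated and 217 FPKM with HGF. The lines did not overlap. Within SK-hep1, the intervals of PSPC1, PSPC1/PTK6 and PSPC1-Y523F/PTK6 overlapped in turn, and mock and PSPC1-Y523F lay below them and apart from each other.

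ERBB4 (HER4; ENSG00000178568, chromosome 2, 211375717 to 212538841) was near 0 outside Huh-7. It had 99 reads, 1.27 FPKM, in untreated Huh-7 cells and 69 reads, 0.954 FPKM, with HGF. SK-hep1 libraries held between 0 and 7 reads and Mahlavu libraries between 4 and 7 reads. A count of 0 in SK-hep1 mock allows up to 0.0374 FPKM by the Wilson interval. The summed receptor level was led by ERBB2 in SK-hep1 cells, with 47.8% to 58.4% of the 4 receptors' FPKM, by EGFR in Mahlavu cells, with 64.3% to 68.0%, and by ERBB3 in Huh-7 cells, with 59.0% untreated and 57.7% with HGF.

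**Figure D1:**
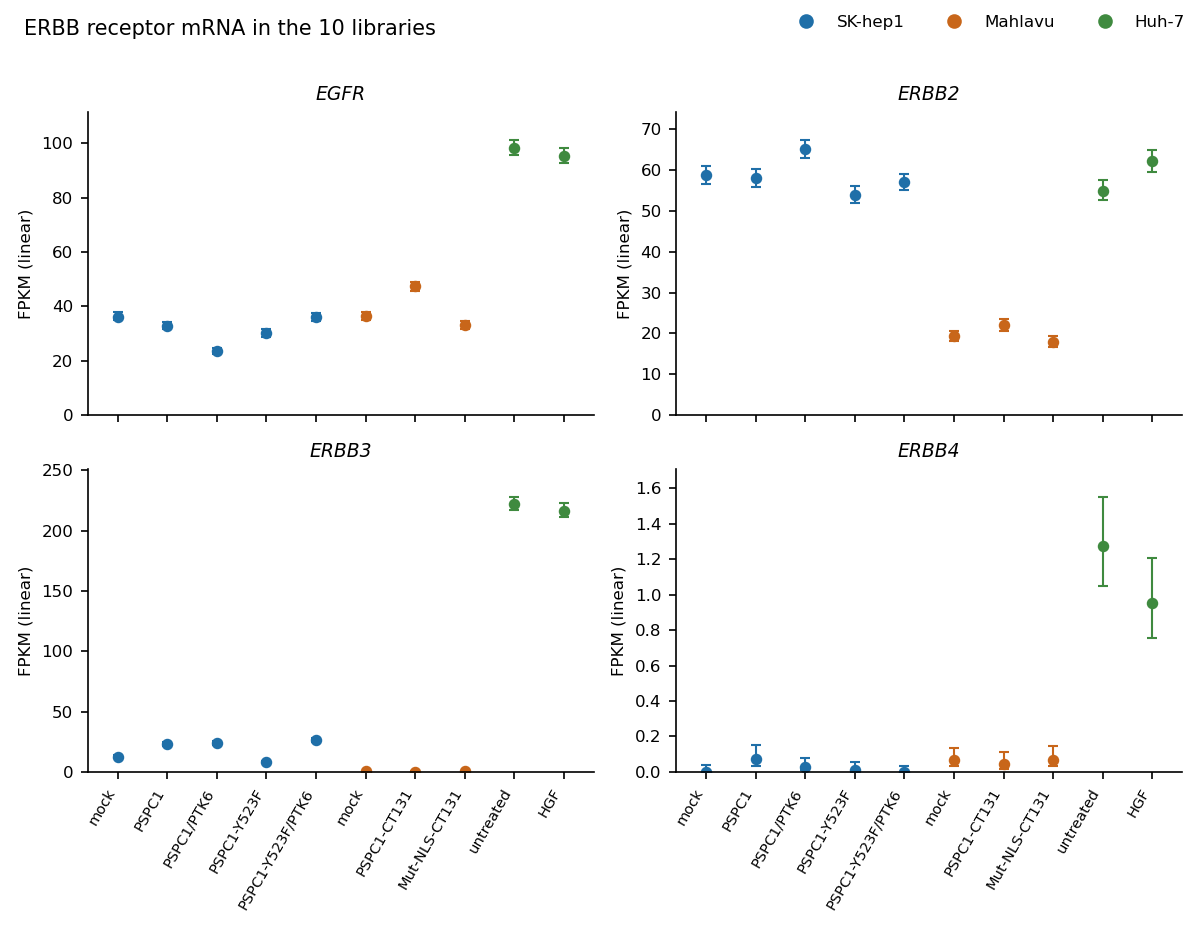
FPKM as deposited (linear axes from 0) of the 4 receptors in each of the 10 libraries, with 95% Wilson counting intervals and colours for the cell lines. ERBB3 runs from 0.215 FPKM in a Mahlavu library to 222 FPKM in untreated Huh-7 cells, while ERBB2 separates only the Mahlavu libraries from the rest.

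HBEGF, which binds EGFR and ERBB4, had the highest level of the 5 member ligands in 9 of 10 libraries. It was at 21.4 FPKM in SK-hep1 mock, 27.1 FPKM in PSPC1, 32.7 FPKM in PSPC1/PTK6, 34.9 FPKM in PSPC1-Y523F and 16.5 FPKM in PSPC1-Y523F/PTK6, from 560 to 1089 reads. Mahlavu cells had 16.5 FPKM in mock, 18.8 FPKM with PSPC1-CT131 and 10.1 FPKM with Mut-NLS-CT131, and Huh-7 cells had 3.33 FPKM untreated and 2.31 FPKM with HGF. Both Huh-7 libraries were below the rest, and the other 2 lines overlapped at PSPC1-Y523F/PTK6, Mahlavu mock and PSPC1-CT131. Huh-7 with HGF was the exception to the lead of HBEGF, with AREG at 38.1% of the 5 ligands' FPKM. There the intervals of AREG (1.79 to 3.39 FPKM) and HBEGF (1.74 to 3.05 FPKM) overlapped and the order of the 2 genes could not be told. In untreated Huh-7 cells it could not be told either, with HBEGF at 2.66 to 4.17 FPKM and AREG at 1.82 to 3.37 FPKM.

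TGFA (ENSG00000163235, chromosome 2, 70447280 to 70554193), an EGFR ligand often made by carcinoma cells, split the SK-hep1 libraries into a high and a low set. Mock had 3.27 FPKM (2.63 to 4.07) from 80 reads and PSPC1/PTK6 had 3.42 FPKM (2.79 to 4.19) from 92 reads. PSPC1 had 0.833 FPKM from 19 reads, PSPC1-Y523F had 0.547 FPKM from 13 reads and PSPC1-Y523F/PTK6 had 0.256 FPKM from 7 reads. The intervals of the 3 low libraries did not reach those of the other pair. Mahlavu cells had 58, 39 and 14 reads, 2.27, 1.75 and 0.650 FPKM, in mock, PSPC1-CT131 and Mut-NLS-CT131. Huh-7 cells had 0 reads untreated, which allows up to 0.208 FPKM by the Wilson interval, and 2 reads with HGF.

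EREG and AREG, which bind EGFR and for EREG also ERBB4, were low genes, and EREG had 1 library that stood out. EREG had 71 reads in SK-hep1 mock (1.51 FPKM), 95 in PSPC1 (2.17 FPKM), 334 in PSPC1/PTK6 (6.45 FPKM), 71 in PSPC1-Y523F (1.55 FPKM) and 29 in PSPC1-Y523F/PTK6 (0.551 FPKM). Mahlavu libraries held 0, 1 and 0 EREG reads, and Huh-7 cells had 26 reads (0.732 FPKM) untreated and 17 reads (0.514 FPKM) with HGF. PSPC1/PTK6 was the highest of the 10 libraries and its interval, 5.79 to 7.18 FPKM, met no other. AREG had 30 reads (1.27 FPKM, 0.893 to 1.82) in PSPC1/PTK6, an interval that overlapped those of other SK-hep1 libraries, against 13 in mock, 5 in PSPC1, 14 in PSPC1-Y523F and 19 in PSPC1-Y523F/PTK6. Huh-7 cells had more AREG, at 2.48 FPKM untreated and 2.46 FPKM with HGF, and Mahlavu libraries held 2, 1 and 0 reads. For AREG all 9 neighbouring pairs in the order of levels overlapped within counting error.

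BTC, which binds EGFR and ERBB4, was higher in Mahlavu than in SK-hep1 libraries. It had 40 reads (1.03 FPKM) in Mahlavu mock, 7 reads (0.206 FPKM) with PSPC1-CT131 and 14 reads (0.426 FPKM) with Mut-NLS-CT131. Huh-7 cells had 16 reads (0.568 FPKM) untreated and 28 reads (1.07 FPKM) with HGF, and SK-hep1 libraries held between 0 and 5 reads. Of all 11 ligand genes read, NRG1 (neuregulin 1, which binds ERBB3 and ERBB4) had the highest level in each of the 10 libraries, from 4.91 FPKM in Huh-7 with HGF to 71.0 FPKM in SK-hep1 mock.

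**Figure D2:**
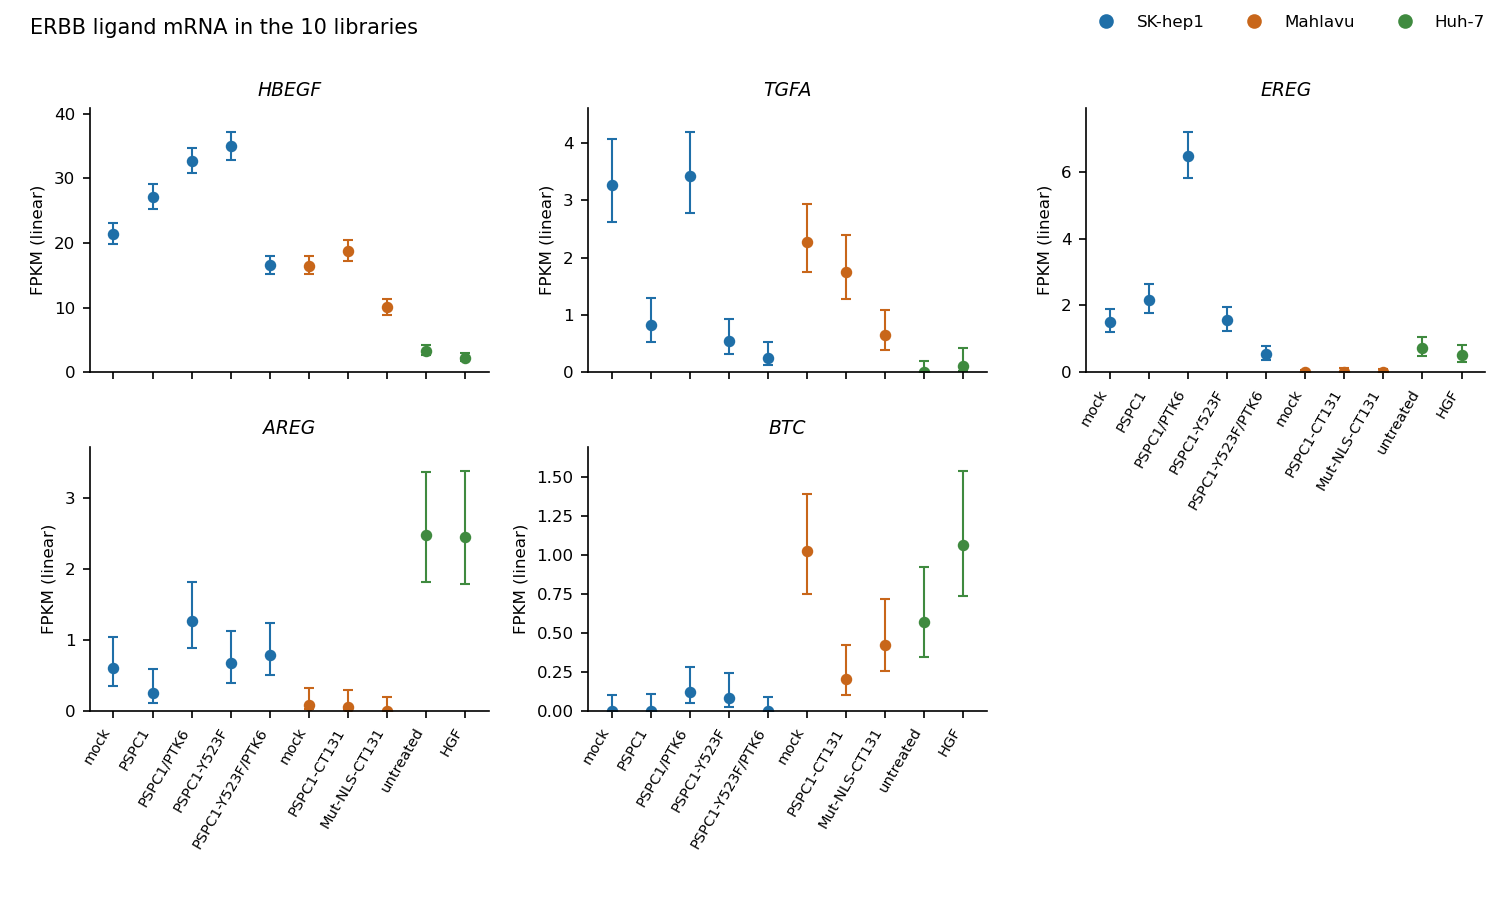
FPKM as deposited (linear axes from 0) of the 5 ligands in each of the 10 libraries, with 95% Wilson counting intervals and colours for the cell lines. EREG is highest in PSPC1/PTK6 at 6.45 FPKM, and TGFA is above 3 FPKM in SK-hep1 mock and PSPC1/PTK6 only.

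The lines were compared by setting the 5 SK-hep1 libraries against the 3 Mahlavu libraries. ERBB2, ERBB3, AREG, EREG and HBEGF were higher in SK-hep1 cells, and the levels of EGFR and TGFA did not pass the test. Libraries of 1 line carry different constructs, so the spread behind this test is that between constructs and not between cultures of 1 condition. With edgeR's quasi-likelihood test and Benjamini-Hochberg adjustment over 15229 genes, 5 of the 7 tested members passed an adjusted p of 0.05, against 51.7% of all genes tested, and these 5 were higher in SK-hep1, a direction that 23.9% of genes took. EREG and AREG passed the filter on low counts through their SK-hep1 reads, and the same filter left out BTC, so the single direction is partly set by the filter, without which 5 members were higher and 1 was lower. ERBB3 differed by a log2 value of 6.22 ± 0.52 (SE, adjusted p = 4.12e-06, edgeR) and ERBB2 by 1.83 ± 0.18 (adjusted p = 1.31e-05, edgeR). HBEGF differed by 1.07 ± 0.29 (adjusted p = 0.00965, edgeR), and over the alternatives its adjusted p lay between 9.78e-04 and 0.0433. The difference for EGFR was -0.02 ± 0.24 (adjusted p = 0.949, edgeR) and for TGFA 0.33 ± 0.75 (adjusted p = 0.739, edgeR), and neither value shows that the lines are alike.

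For the low ligands the reads are given beside the test, pooled over the libraries of each line. Intervals of these ratios cover counting error and not the spread between libraries. PSPC1/PTK6 alone held 334 of the SK-hep1 reads of EREG. EREG had 600 reads over the SK-hep1 libraries and 1 over the Mahlavu libraries, a ratio of 332 after scaling to total reads, with a 95% counting interval of 59.4 to 13151. Its adjusted p was 1.77e-04 with edgeR. AREG had 81 and 3 reads, a ratio of 15.0 (4.94 to 74.0), with an adjusted p of 0.00139 in edgeR. BTC went the other way with 8 reads in SK-hep1 and 61 in Mahlavu cells, and together with ERBB4 it was below the filter on low counts. BTC passed the test, lower in SK-hep1, without that filter and when PSPC1-CT131 was left out, with adjusted p between 5.98e-04 and 0.0114 (edgeR). In the latter case it came past the filter through its Mahlavu reads, so that result is partly set by the filter. Mahlavu mock held 40 of the 61 reads. EPGN, the neighbour of EREG, had 375 reads in SK-hep1 and 0 in Mahlavu cells. Against a floor of 3 reads over the line its ratio was 69.3. From the reads themselves the lower bound of the 95% counting interval of the ratio was 56.0.

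The genes beside ERBB2 on chromosome 17 differed in the same direction. All 5 of the neighbours tested (STARD3, TCAP, PGAP3, MIEN1 and GRB7, named after their values were seen) were higher in SK-hep1 cells, with a median log2 difference of 1.15, next to 1.83 for ERBB2 itself. For MIEN1 and GRB7 the adjusted p reached 0.136 and 0.0622 under an alternative (edgeR or DESeq2). DNA copy number was not measured here. Of all genes tested 51.7% passed and 23.9% were higher in SK-hep1, and list counts are to be read against these shares. Of 6 genes for ligand release, 0 passed this edgeR test, against 7 higher and 1 lower of 12 ERK-induced genes and 3 higher and 2 lower of 18 adaptor and RAS-ERK-PI3K core genes.

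The SK-hep1 transfectants were each compared with the mock library, which all 4 contrasts share. TGFA was lower in the 3 libraries PSPC1, PSPC1-Y523F and PSPC1-Y523F/PTK6, EREG was higher in PSPC1/PTK6 and ERBB3 was higher in PSPC1-Y523F/PTK6. The log2 fold change is that of quantile-normalized FPKM + 1, a scale that understates changes of low genes, and 1 library against 1 allows no test. At least 2-fold was reached by 1 of 6 members that passed the filter of a mean of 1 FPKM with PSPC1 (5.57% of all genes), by 1 of 7 with PSPC1/PTK6 (8.41%), by 1 of 6 with PSPC1-Y523F (5.29%) and by 2 of 7 with PSPC1-Y523F/PTK6 (5.03%). ERBB4 and BTC were below the filter in all 4 contrasts and AREG in those of PSPC1 and PSPC1-Y523F. Markers moved in the same libraries. Of 7 mesenchymal markers, 5 or 6 passed the filter and FN1 (fibronectin) lay between -3.11 and -1.07 in the 4 contrasts. COL3A1 was at 1.09 with PSPC1/PTK6, and with PSPC1-Y523F COL1A1 was at -1.61 and COL1A2 at 1.31. The summed level of the list was 978 FPKM in mock and 567 to 995 FPKM in the transfectants. Of 7 epithelial markers, 3 or 4 passed, and KRT19 was at 1.06 with PSPC1, 1.09 with PSPC1-Y523F and 1.89 with PSPC1-Y523F/PTK6. The others did not all move with it. KRT8 was at -0.41, 0.28 and 0.28 and KRT18 at -0.36, -0.30 and 0.35 in the same libraries, and CLDN4 was at 0.43 with PSPC1. With PSPC1/PTK6, CLDN4 was at 1.27, KRT19 at 0.58, KRT8 at -0.69 and KRT18 at -0.82. List sums were 8464 FPKM in mock and 5417 to 13878 FPKM in the transfectants. Of 5 blood cell markers CD14 alone passed, at -1.30, -1.01 and -1.15 in the first 3 contrasts, and 0 of 7 endothelial markers passed. The part of these markers in the members' results was not tested.

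The log2 fold change of TGFA was -1.25 with PSPC1, an FPKM ratio of 0.255 (95% Clopper-Pearson counting interval 0.146 to 0.424). It was -1.49 with PSPC1-Y523F, a ratio of 0.167 (0.0852 to 0.302), and -1.80 with PSPC1-Y523F/PTK6, a ratio of 0.0781 (0.0304 to 0.169). With PSPC1/PTK6 it was -0.28 by quantile-normalized and 0.05 by deposited FPKM, a ratio of 1.04 (0.765 to 1.43). So 3 of 4 transfectants had less TGFA than mock beyond counting error, and the library with wild-type PSPC1 and PTK6 together did not.

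EREG had a log2 fold change of 1.21 with PSPC1/PTK6, a ratio of 4.27 (3.30 to 5.60). The other values were 0.31 with PSPC1, 0.05 with PSPC1-Y523F and -0.69 with PSPC1-Y523F/PTK6, where the ratio was 0.365 (0.228 to 0.569). For ERBB3 the values were 0.83 with PSPC1, 0.68 with PSPC1/PTK6, -0.44 with PSPC1-Y523F and 1.06 with PSPC1-Y523F/PTK6, the last a ratio of 2.07 (1.85 to 2.31). Its position at the threshold depended on scaling, since deposited FPKM gave 0.99. HBEGF stayed below 2-fold, at 0.37, 0.47, 0.71 and -0.20 in the same order of libraries, and EGFR was lowest with PSPC1/PTK6 at -0.74, a ratio of 0.650 (0.610 to 0.692). ERBB2 lay between -0.08 and 0.09.

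**Figure D3:**
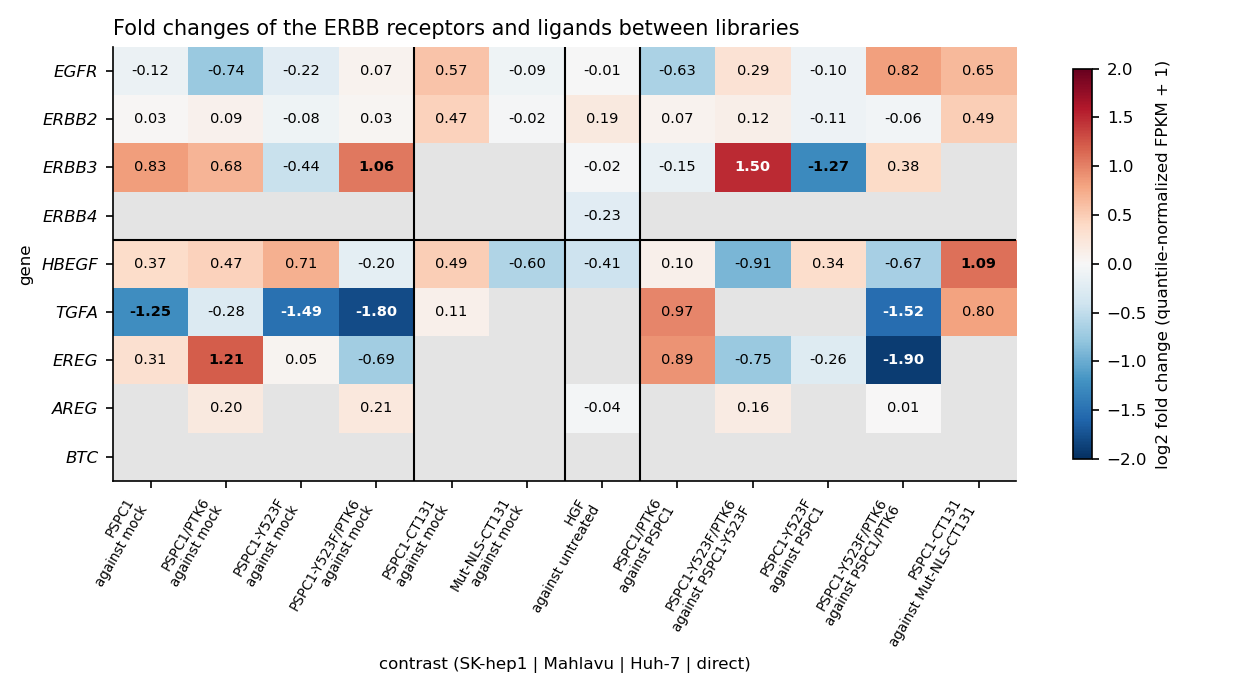
Log2 fold changes of quantile-normalized FPKM + 1 for the 9 genes (rows) in the 12 contrasts (columns), bold at 2-fold or more and grey where the mean was under 1 FPKM. TGFA is at -1.25 or lower in 3 of the 4 SK-hep1 contrasts with mock, and the columns of Mahlavu against mock and of HGF hold no bold value.

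Transfectants were then set directly against each other, where contrasts share libraries. Adding PTK6 to PSPC1 moved 0 of 6 members by 2-fold (4.96% of all genes), with TGFA at 0.97 and EREG at 0.89 the largest. The FPKM ratios were 4.10 (2.48 to 7.12) for TGFA and 2.98 (2.36 to 3.78) for EREG. With deposited FPKM both passed 2-fold, at 1.27 and 1.23, where the median of all genes was 0.19. Adding PTK6 to PSPC1-Y523F moved 1 of 6 (5.98%), ERBB3 at 1.50, a ratio of 3.19 (2.79 to 3.65). PSPC1-Y523F against PSPC1 moved 1 of 5 (4.25%), again ERBB3, at -1.27, a ratio of 0.351 (0.306 to 0.403). ERBB3 was thus lowest with the mutant alone, and its level with the mutant and PTK6 was close to that with wild-type PSPC1. PSPC1 itself differed between these libraries, at 7.01 FPKM in PSPC1 and 26.4 FPKM in PSPC1/PTK6. It was at 2.28 FPKM in PSPC1-Y523F and 70.9 FPKM in PSPC1-Y523F/PTK6. The part of these PSPC1 levels in the results was not tested.

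With PTK6 present in both, the mutant against the wild type moved 2 of 7 members (6.96%), EREG at -1.90 and TGFA at -1.52. The ratios were 0.0854 (0.0563 to 0.125) for EREG and 0.0748 (0.0293 to 0.160) for TGFA, on 334 against 29 and 92 against 7 reads. In this pair HBEGF was also lower, at -0.67, and EGFR was higher, at 0.82, both within 2-fold. The PSPC1 reads of these 2 libraries differed as well, at 26.4 and 70.9 FPKM, and their part in the result was not tested.

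In Mahlavu cells, 0 of 4 members that passed the filter changed 2-fold with PSPC1-CT131 (6.33% of all genes) and 0 of 3 with Mut-NLS-CT131 (6.42%), against the mock library that both share. EGFR had log2 fold changes of 0.57 and -0.09, and ERBB2 of 0.47 and -0.02. HBEGF had 0.49 and -0.60. TGFA was at 0.11 with PSPC1-CT131 by quantile-normalized FPKM and at -0.25 by deposited FPKM, and with Mut-NLS-CT131, where it was below the filter, its FPKM ratio to mock was 0.287 (0.148 to 0.521) on 58 and 14 reads. BTC, also below the filter, had an FPKM ratio to mock of 0.200 (0.0758 to 0.452) with PSPC1-CT131 and of 0.416 (0.209 to 0.781) with Mut-NLS-CT131. Both libraries thus had less BTC than mock beyond counting error, and Mut-NLS-CT131 also less TGFA. Of 7 epithelial markers, 3 passed the filter with Mut-NLS-CT131, and they did not move together. KRT8 was at -1.55 and KRT18 at -1.49 there, while CLDN4 was higher, at 1.68. CLDN4 was also at least 2-fold higher with PSPC1-CT131. The part of these markers in the result was not tested.

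Set directly against Mut-NLS-CT131, PSPC1-CT131 moved 1 of 4 members by 2-fold (8.82% of all genes), HBEGF at 1.09, a ratio of 1.86 (1.60 to 2.17) on 518 against 268 reads. TGFA was at 0.80, EGFR at 0.65 and ERBB2 at 0.49, so all 4 were higher with PSPC1-CT131. Across genes the log2 fold change of this contrast was larger at higher GC content of the transcript, with a Spearman rho of 0.57 over 12440 genes that are not independent replicates. HBEGF fell just short of 2-fold when GC content and length were taken out, at 0.99, and with deposited FPKM, at 0.84. By the same measure rho was 0.57 for PSPC1-CT131 against mock and between -0.31 and 0.30 in the other contrasts.

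HGF in Huh-7 cells moved 0 of 6 members by 2-fold (0.82% of all genes). EGFR had a log2 fold change of -0.01, ERBB3 of -0.02, AREG of -0.04 and ERBB2 of 0.19. ERBB4 was at -0.23, a ratio of 0.749 (0.542 to 1.03), and HBEGF at -0.41, a ratio of 0.692 (0.473 to 1.00). For ERBB2 alone did the counting interval of the ratio exclude 1, at 1.13 (1.06 to 1.21). The ratio for BTC, 1.88 on 16 and 28 reads, had an interval of 0.982 to 3.72.

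The cluster on chromosome 4 was read gene by gene. EPGN had 30 reads in SK-hep1 mock (2.55 FPKM), 74 in PSPC1 (6.75 FPKM), 129 in PSPC1/PTK6 (9.97 FPKM), 116 in PSPC1-Y523F (10.1 FPKM) and 26 in PSPC1-Y523F/PTK6 (1.98 FPKM), with 0 reads in the other 5 libraries. Its log2 fold changes against mock were 1.15, 1.32 and 1.66 in the first 3 transfectants. EREG shared with EPGN a high level in PSPC1/PTK6 and its lowest SK-hep1 level in PSPC1-Y523F/PTK6. The order differed in PSPC1-Y523F, where EPGN had 3.97 times the mock level (2.64 to 6.15) and EREG 1.03 times (0.729 to 1.45). Of the list of genes near the cluster, EPGN included, 4 passed the filter in SK-hep1 cells and 2, 3, 1 and 0 were at least 2-fold higher against mock, in the order of libraries used above, with none lower, where 5.57%, 8.41%, 5.29% and 5.03% of all genes changed 2-fold. The others named by the rule were the chemokines CXCL8, at 1.69 in PSPC1/PTK6, and CXCL1, at 1.16 in PSPC1 and 1.04 in PSPC1/PTK6. In Mahlavu cells CXCL8 was at -1.55 with PSPC1-CT131 and CXCL1 at 1.16 with Mut-NLS-CT131.

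**Figure D4:**
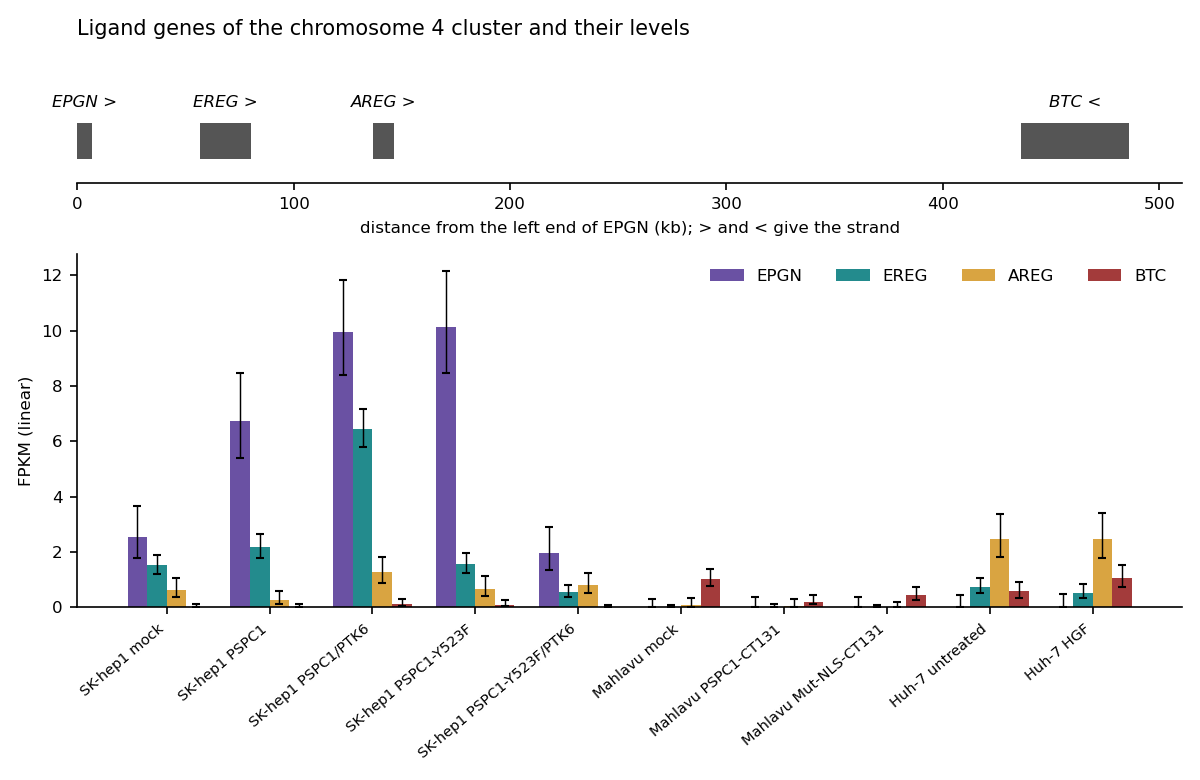
Top, EPGN, EREG, AREG and BTC drawn to scale by distance from the left end of EPGN (kb); bottom, their FPKM as deposited (linear axis from 0) in the 10 libraries with 95% Wilson counting intervals. EPGN is seen in the SK-hep1 libraries and EREG and AREG in those and Huh-7, while in Mahlavu mock BTC is the highest of the 4 at 1.03 FPKM.

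Apart from EPGN, NRG1 was the only ligand outside the members with a 2-fold change against mock. It had 71.0 FPKM in SK-hep1 mock, 38.4 FPKM in PSPC1, 64.6 FPKM in PSPC1/PTK6, 40.3 FPKM in PSPC1-Y523F and 21.4 FPKM in PSPC1-Y523F/PTK6, the last a log2 fold change of -1.50. NRG1 and TGFA both stood highest in mock and PSPC1/PTK6 and lowest in PSPC1-Y523F/PTK6. The summed level of all 11 ligands was 107 FPKM in mock, 126 FPKM in PSPC1/PTK6 and 50.3 FPKM in PSPC1-Y523F/PTK6, while the 4 receptors summed to 108, 113 and 119 FPKM in the same libraries.

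The lists of the pathway around the receptors were read by counts. Of all genes, 5.03% to 8.41% changed 2-fold against mock in SK-hep1 cells, 6.33% and 6.42% in Mahlavu cells and 0.82% with HGF. List counts are to be read against these shares. The adaptors and RAS-ERK-PI3K core genes all passed the filter, 18 of 18, and 1 changed 2-fold in 4 SK-hep1 contrasts, PIK3R1, a regulatory subunit of PI3K, at -1.24 with PSPC1. The median of this list lay between 0.00 and 0.03 in those contrasts, against -0.04 to -0.01 for all genes. Of 6 ligand shedding genes, 0 changed 2-fold against mock in either line or with HGF. Among 11 inhibitors, LRIG1, which promotes the degradation of ERBB receptors, was the only gene past 2-fold against mock. Its log2 fold changes were -1.53 with PSPC1 and -1.22 with PSPC1-Y523F in SK-hep1 cells, and 1.21 with PSPC1-CT131 in Mahlavu cells.

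LRIG1 had 3.80 FPKM in SK-hep1 mock, 0.719 FPKM in PSPC1, 5.94 FPKM in PSPC1/PTK6, 1.01 FPKM in PSPC1-Y523F and 7.36 FPKM in PSPC1-Y523F/PTK6, from 32 to 393 reads. Among the 4 transfectants it was lower in both without added PTK6 than in both with it, and mock lay between. The log2 fold changes for adding PTK6 were 1.74 and 2.10. PSPC1 was also higher in both libraries with added PTK6, and its part in this was not tested. Of 12 ERK-induced genes, 0, 0, 0 and 1 were at least 2-fold higher and 3, 3, 1 and 1 lower against mock, in the same order of libraries, next to 5.57%, 8.41%, 5.29% and 5.03% of all genes changed 2-fold. EGR1, an immediate early transcription factor, was at -1.96, -2.42 and -1.07 in the first 3. CCND1, which encodes cyclin D1, was at -1.03 with PSPC1 and -1.16 with PSPC1/PTK6. FOS was at -1.17 with PSPC1/PTK6 and -1.16 with PSPC1-Y523F/PTK6, and DUSP4, an ERK phosphatase, was at 1.60 with PSPC1-Y523F/PTK6.

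Of 11 ERK-induced genes that passed the filter in Mahlavu cells, 1 was at least 2-fold higher with PSPC1-CT131. With Mut-NLS-CT131, 2 were higher and 1 was lower. Of all genes, 6.33% and 6.42% changed 2-fold in these contrasts. ETV4 was at 1.53 and 1.37 in these libraries, DUSP5 at 1.08 and EPHA2 at -1.19 with Mut-NLS-CT131. The list medians were 0.66 and 0.72, against 0.01 and 0.00 for all genes. With HGF, 0 of 11 changed 2-fold (0.82% of all genes). Of the ERBB2 neighbours, PGAP3 alone passed 2-fold against mock, at 1.24 with PSPC1-CT131, where ERBB2 was at 0.47.

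The genes whose pattern was most like that of a changed member were found by the root-mean-square distance of log2 fold changes against mock over the 6 transfectant libraries, among 12553 genes. For ERBB3 they were ANKS1B, NOP53 and LDOC1, at 0.25 each. For EREG they were MRNIP, DEF6 and ZNF436-AS1, at 0.18 to 0.21. For TGFA they were PPFIBP2, ZNF618 and NDRG2, at 0.30 to 0.40. The distance grows with the size of the changes, and ERBB3 and EREG were below the filter in both Mahlavu contrasts. Distances are therefore not comparable between members.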

How the data were processed

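Libraries were grouped by their labels, 1 library per condition. For SK-hep1 and Mahlavu cells the authors deposited raw read counts and FPKM per gene, and for Huh-7 cells FPKM alone. Per the labels, poly-A RNA was sequenced and TopHat2 2.0, HTSeq 0.6.1, edgeR and GRCh38.p12 were used, while the paper's methods name rRNA depletion and another build. The deposited FPKM are whole multiples of 1 read within 0.01 reads, which gave the Huh-7 reads (100% of values). They are not quantile normalized, so that step of the methods was carried out here, on the 2 transfected lines together (8 libraries) and on Huh-7 cells (2 libraries). FPKM rest on a gene length shorter than the listed one (2991 against 9821 bases for EGFR), which bears on levels between genes.

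Log2 fold changes used a pseudocount of 1 and a mean of at least 1 FPKM, and 2-fold was called. Intervals are 95% Wilson intervals for levels and Clopper-Pearson intervals for ratios, and both cover counting error only, since reads carry no molecular identifiers. The lines were compared on the counts with edgeR 4.0.16 (TMM, filterByExpr, quasi-likelihood test) in R 4.3.3 and, as an alternative, with DESeq2 1.42.0. The SE was taken from the F statistic. Nothing in the labels says that libraries of a line were independent cultures. The named genes are the 9 members, PSPC1, PTK6, list genes past 2-fold against mock or with HGF (up to 4 per list and line) and the 3 nearest genes of each changed member, and other names are marked as chosen later. Members and lists were chosen with earlier results of these data known. Motifs were searched in RefSeq windows of 6 members and EPGN. In 6 of the 7 windows the bases after the start lay in a GENCODE 29 transcript of the gene. Scripts were tested on simulated data. Python 3.11.15 with numpy 2.4.6, pandas 2.3.3, scipy 1.17.1 and matplotlib 3.10.9 was used.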

Additional observations from a re-analysis of the deposited data

Results flagged for a closer look

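For 3 members the log2 fold change of adding PTK6 had opposite signs with the wild-type and the mutant PSPC1. The counting intervals of both ratios excluded 1, and these are ratios of deposited FPKM. For EREG the log2 fold change was 0.89 for PSPC1/PTK6 against PSPC1 and -0.75 for PSPC1-Y523F/PTK6 against PSPC1-Y523F. For EGFR it was -0.63 and 0.29. For HBEGF it was 0.10 and -0.91. Each value is 1 library against 1 library, and the difference was not tested. For PSPC1/PTK6 against PSPC1, the median log2 fold change of all genes with deposited FPKM was 0.19. The HBEGF interval in that contrast carries this offset, so the sign of its value of 0.10 is not settled. PSPC1 itself was also higher with PTK6, at 26.4 against 7.01 FPKM with the wild type and 70.9 against 2.28 FPKM with the mutant. Its part in these results was not tested.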

How the results depend on the processing

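With 5 added in place of 1, the 5 changes of members against mock in SK-hep1 cells became 0 and the 5 changes between transfectants became 2. With a mean of at least 5 FPKM they became 1 and 3, by construction among fewer genes. With 0.1 added, the changes between transfectants became 9. The counts against mock in Mahlavu cells and with HGF were 0 in every alternative that was run, and none of the 10 called values changed sign. With deposited FPKM 8 of the 10 called values kept 2-fold, 2 lost it and 3 other values gained it. Of 67 values of members past the filter, 13 changed sign under at least 1 alternative, all of a size of 0.28 or less on the log2 scale. The median of all genes moved by -0.29 to 0.19 with deposited FPKM, against values near 0 after quantile normalization. Between the lines the same 5 members were called with DESeq2, without the mock libraries and with each library left out, with 5 to 6 called in the last (BTC was added without PSPC1-CT131) and 6 without a filter on low counts. No paired analysis was possible because each condition is 1 library and the labels give no replicate numbers. Depth limits ERBB4, AREG, EREG, BTC and TGFA, most of whose values rest on fewer than 100 reads.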
